A study of Mus musculus with 2 samples.

Results

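The Notch pathway and Hes genes described here are 10 genes: the receptors Notch1, Notch2 and Notch3, the ligands Dll1 and Jag1, the endocytic adaptor Numb, the DNA-binding factor Rbpj, and the transcriptional repressors Hes1, Hes5 and Hey1. They were taken by name from the 29809 genes of the unique molecular identifier (UMI) tables, and all 10 had UMIs in both libraries. The libraries were Drop-seq libraries, in which cells are caught with barcoded beads in droplets and the 3' ends of their transcripts are read, from microdissected arcuate nucleus and median eminence, the part of the hypothalamus around the floor of the third ventricle. The Irx3/5dHet library (genotype Irx3/5+/-, heterozygous for the transcription factor genes Irx3 and Irx5) pooled 5 mice, and the WT library (wildtype) pooled 7. All mice were of the CD-1 strain and 7 to 8 weeks old, and live cells were sorted before capture. Cells cannot be assigned to single mice, so each genotype is 1 sample. No test between genotypes was therefore possible, and every interval below covers counting error only.

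Notch receptors are cleaved when they bind Delta or Jagged ligands on a neighbouring cell, and the freed intracellular part joins Rbpj on DNA to switch on target genes, of which Hes and Hey repressors are the best known. Hes proteins in turn repress proneural genes, and Numb antagonises the receptor. In the adult brain the pathway is known for keeping neural stem cells and glial progenitors undifferentiated and for its role in vascular mural cells. Tanycytes, the radial ependymoglia that line the floor of the third ventricle, are one such candidate progenitor of the hypothalamus, and Hes1 is also induced by signals other than Notch.

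After filtering, 1480 Irx3/5dHet cells with a median of 1156.5 UMIs and 2392 WT cells with a median of 1274 UMIs were used. Cell classes came from 20 clusters named by marker lists that hold none of the 10 genes, and are called "-like" because no annotation of single cells was used. Levels are given for the 11 classes that had 30 or more cells in both libraries. One cluster had equally many tanycyte and astrocyte markers among its leading genes (Crym and Rax for tanycytes, Slc1a3 and Mlc1 for astrocytes) and is called the mixed tanycyte-astrocyte cluster. A separate tanycyte-like cluster was led by Scn7a. Clusters led by Agrp and Npy (54 cells) and by Kiss1 and Tac2 (40 cells), neuropeptide genes of the arcuate nucleus, matched the labelled tissue. Larger neuron-like clusters were led by Vip and Rgs16 (209 cells) and by Foxb1 (91 cells), so the neuron-like class was not limited to such arcuate clusters. Pars tuberalis-like and keratin epithelial-like clusters were also present. Neuron-like cells were 47.8% of the used cells of the Irx3/5dHet library and 34.5% of those of the WT library. Irx3 had 15 UMIs in the Irx3/5dHet library and 30 in the WT library, a log2 ratio of -0.42 (95% interval -1.42 to 0.52), and Irx5 had 6 and 16 UMIs, a log2 ratio of -0.84 (-2.48 to 0.59), so the heterozygous loss was not detectable at this depth. The 2 libraries shared 3 barcode sequences.

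Hes1 held most of the signal of the 10 genes. It had 958 UMIs in 278 Irx3/5dHet cells and 2657 UMIs in 593 WT cells. None of the other 9 genes exceeded 49 UMIs in the Irx3/5dHet library or 109 UMIs in the WT library. Levels below are in CPM, the counts-per-million scaling of a gene's UMIs within a class and library, which count molecules and are not divided by gene length, and statements on a class or library rest on few molecules for every gene but Hes1.

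**Figure D1:**
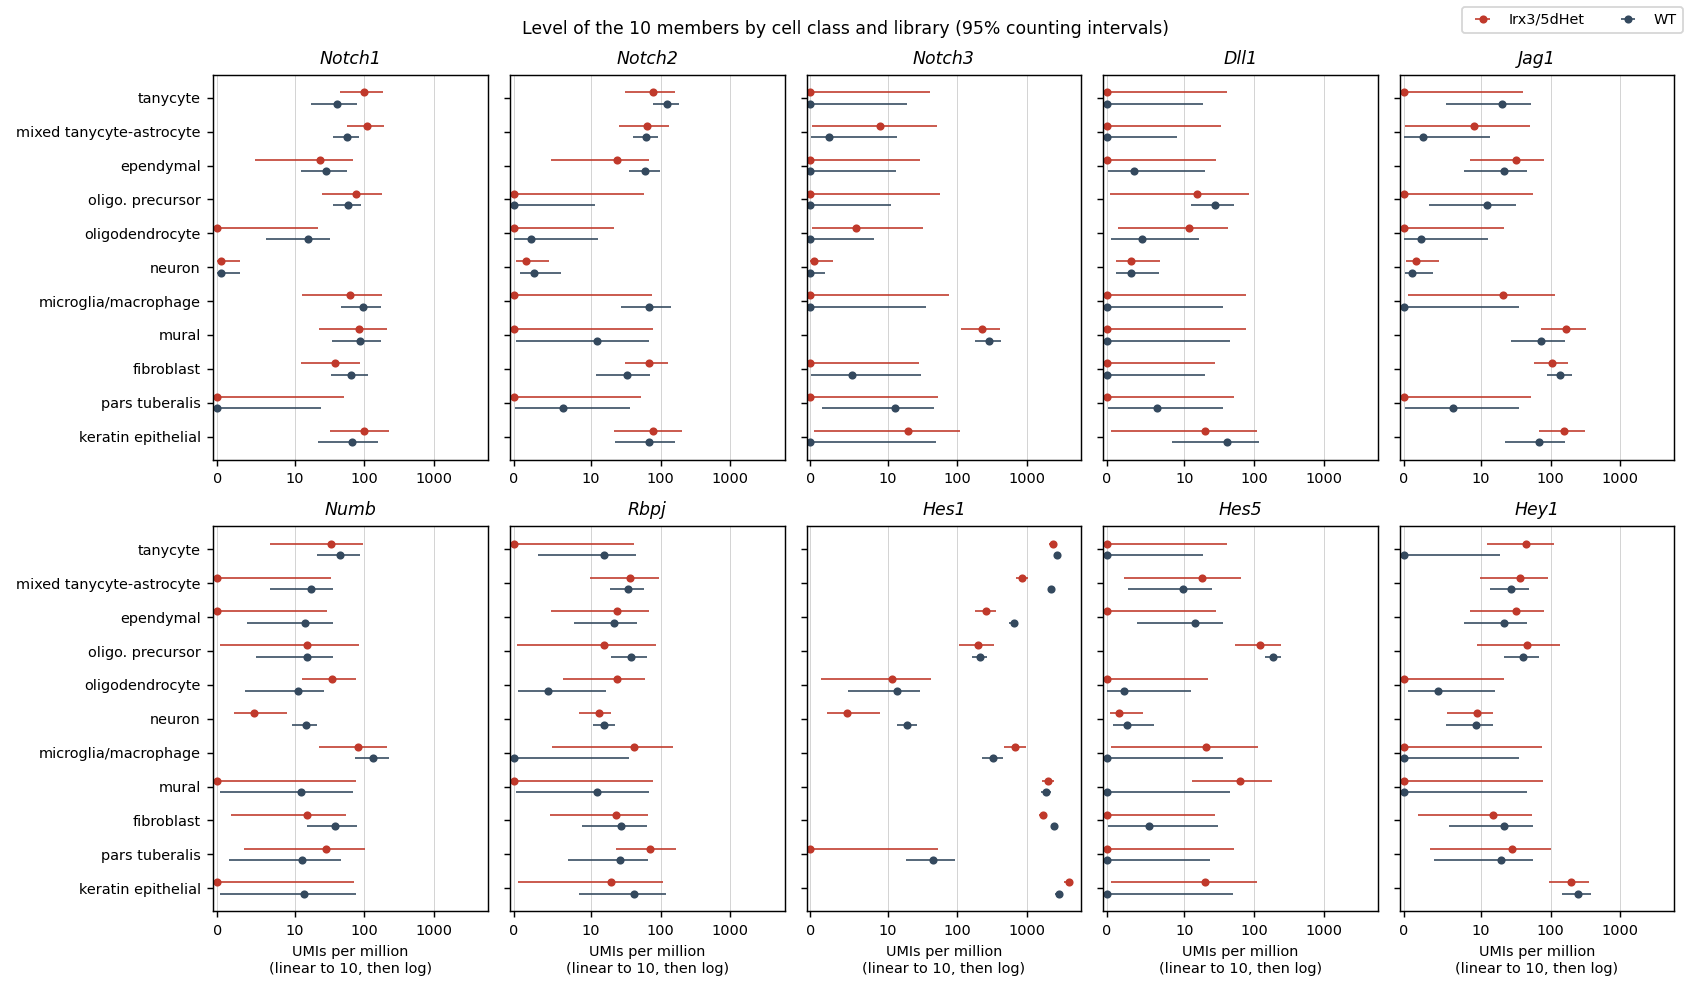
Level in CPM of each of the 10 genes (horizontal axis, linear up to 10 and logarithmic above) in 11 cell classes, with the Irx3/5dHet library above the WT library and bars for exact 95% Poisson intervals. Hes1 lies between 1696 and 3975 in tanycyte-like, mural-like, fibroblast-like and keratin epithelial-like cells of both libraries, Notch3 stands out in mural-like cells, and Hes5 in oligodendrocyte precursor-like cells.

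Among the receptors, Notch1 and Notch2 were spread over several non-neuronal classes, with the highest WT level of Notch2 in tanycyte-like cells, and most Notch3 UMIs were in mural-like cells. Notch1, the receptor best known from neural stem cells and endothelium, had 49 UMIs in the Irx3/5dHet library and 109 in the WT library. Its level was 109 CPM (56.2 to 190) in Irx3/5dHet cells and 56.3 CPM (35.7 to 84.5) in WT cells of the mixed tanycyte-astrocyte cluster, and 99.5 CPM and 40.3 CPM in tanycyte-like cells. Mural-like cells had 83.2 and 86.0 CPM, oligodendrocyte precursor-like cells 76.7 and 58.3 CPM, and keratin epithelial-like cells 97.9 and 67.9 CPM, again with Irx3/5dHet given before WT. Microglia or macrophage-like cells had 61.7 CPM from 3 UMIs and 96.1 CPM from 10 UMIs, and fibroblast-like cells 37.7 and 65.0 CPM. The intervals of these 7 classes overlapped one another in each library, so their order is not resolved. Neuron-like cells, the class with the most UMIs in all, held 1 Notch1 UMI in each library. Endothelial-like cells were too few for a level, with 13 Irx3/5dHet and 40 WT cells, but held 2 and 7 Notch1 UMIs.

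Notch2 had 33 UMIs in the Irx3/5dHet library and 92 in the WT library. Tanycyte-like cells reached 77.4 CPM (31.1 to 159) in the Irx3/5dHet library and 121 CPM (77.5 to 180) in the WT library, and the mixed cluster 63.4 and 61.2 CPM. Ependymal-like cells, the ciliated cells of the ventricle wall, held 3 Irx3/5dHet and 17 WT UMIs, at 23.5 and 60.1 CPM. Notch2 was not limited to the ventricular wall: keratin epithelial-like cells had 78.3 CPM in Irx3/5dHet and 67.9 CPM in WT, and fibroblast-like cells 67.8 and 32.5 CPM. Microglia or macrophage-like cells held 0 Irx3/5dHet and 7 WT UMIs. The intervals of these classes overlapped that of the mixed cluster in both libraries, so their order is not resolved. Oligodendrocyte precursor-like cells held no Notch2 UMI in either library, where 3 UMIs would be 46.0 CPM in Irx3/5dHet and 9.20 CPM in WT, although the same cells held 5 and 19 UMIs of Notch1.

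Notch3, the receptor of vascular smooth muscle and pericytes, was the most restricted of the 10 genes. Mural-like cells held 11 of its 15 Irx3/5dHet UMIs and 23 of its 27 WT UMIs, at 229 CPM (114 to 409) and 283 CPM (179 to 424). Against all other used cells this level was 160-fold higher in the Irx3/5dHet library and 295-fold higher in the WT library. After each cell was thinned to 1000 UMIs, 5 of 17 Irx3/5dHet mural-like cells (29.4%, 95% Clopper-Pearson interval 10.3% to 56.0%) and 9 of 41 WT mural-like cells (22.0%, 10.6% to 37.6%) held a Notch3 UMI. The ratio between genotypes in mural-like cells was -0.30 on the log2 scale (-1.49 to 0.79). Notch3 lies on chromosome 17 at 32120820 to 32166852 of mm10, on the minus strand.

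Of the ligands, Jag1 had 39 Irx3/5dHet UMIs and 56 WT UMIs, and was highest in mesenchymal and epithelial cells. Fibroblast-like cells had 106 CPM (57.7 to 177) in the Irx3/5dHet library and 135 CPM (87.6 to 200) in the WT library. Mural-like cells had 166 and 73.7 CPM, and keratin epithelial-like cells had 157 and 67.9 CPM, in Irx3/5dHet and WT, with intervals that overlapped between the libraries. In the keratin epithelial-like cells of the Irx3/5dHet library 5 of the 8 Jag1 UMIs came from 1 cell. The tanycyte-like and mixed clusters together, which carried Notch1 and Notch2, held only 1 Irx3/5dHet and 5 WT UMIs of Jag1.

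Dll1, a Delta ligand of progenitor cells, had 11 UMIs in the Irx3/5dHet library and 24 in the WT library. Oligodendrocyte precursor-like cells held 1 and 9 of these UMIs, and the 6 Irx3/5dHet and 11 WT cells of the cycling-like cluster held 1 and 2. Neuron-like cells held 6 UMIs in each library, at 3.15 CPM (1.16 to 6.85) in Irx3/5dHet and 3.10 CPM (1.14 to 6.76) in WT. No Dll1 UMI was counted in tanycyte-like or mixed cells, where 3 UMIs over both clusters would be 14.9 CPM in Irx3/5dHet and 4.94 CPM in WT.

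Numb and Rbpj, which act inside the receiving cell, were low in nearly every class. Numb had 30 Irx3/5dHet and 86 WT UMIs and was highest in microglia or macrophage-like cells, with 82.2 CPM (22.4 to 211) and 135 CPM (73.6 to 226). In neuron-like cells Numb had 9 UMIs (4.72 CPM) in the Irx3/5dHet library and 28 UMIs (14.5 CPM) in the WT library, a log2 ratio of -1.62 (-2.89 to -0.49). Rbpj had 48 and 82 UMIs, of which neuron-like cells held 25 in Irx3/5dHet and 30 in WT, at 13.1 and 15.5 CPM. Its ratio in neuron-like cells was -0.24 on the log2 scale (-1.07 to 0.57). Rbpj was thus counted in neuron-like cells at a higher level than any of the 3 receptors in both libraries, although these counts are not divided by length.

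Hes1 formed a wide gradient over the classes, highest in epithelial, vascular, mesenchymal and ventricular cells and almost absent from the counts of neuron-like and oligodendrocyte-like cells. The gene lies on chromosome 16 at 30064384 to 30067796 of mm10, on the plus strand. Keratin epithelial-like cells were highest in both libraries, with 3975 CPM (3447 to 4561) in Irx3/5dHet and 2920 CPM (2543 to 3337) in WT, and 35 of their 203 Irx3/5dHet UMIs came from 1 cell. Tanycyte-like cells had 2366 CPM (2059 to 2705) in Irx3/5dHet and 2738 CPM (2512 to 2978) in WT. In the WT library the intervals of these 2 classes overlapped, whereas in the Irx3/5dHet library they did not.

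Below these 2 classes the order differed between the libraries. Mural-like cells had 1997 CPM in the Irx3/5dHet library and 1855 CPM in the WT library, fibroblast-like cells 1696 and 2436 CPM, and the mixed tanycyte-astrocyte cluster 852 and 2196 CPM. Ependymal-like cells had 259 CPM in Irx3/5dHet and 643 CPM in WT, microglia or macrophage-like cells 678 and 327 CPM, and oligodendrocyte precursor-like cells 199 and 208 CPM. Oligodendrocyte-like cells had 2 Irx3/5dHet and 6 WT UMIs. Pars tuberalis-like cells had 0 and 7 UMIs, and neuron-like cells had 9 and 37.

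For the classes given here, the share of cells with a Hes1 UMI was also higher in ventricular than in neuron-like and oligodendrocyte-like cells. After thinning to 1000 UMIs, 24 of 37 Irx3/5dHet tanycyte-like cells (64.9%, 47.5% to 79.8%) and 48 of 66 WT ones (72.7%, 60.4% to 83.0%) held a Hes1 UMI. In the mixed cluster it was 17 of 37 Irx3/5dHet cells (45.9%, 29.5% to 63.1%) and 109 of 179 WT cells (60.9%, 53.3% to 68.1%), after 80 and 111 shallower cells were left out. The thinned intervals of the mixed cluster overlapped between the libraries. Without thinning, the mixed cluster gave 36.8% in Irx3/5dHet and 57.2% in WT. Neuron-like cells gave 2 of 475 (0.421%) and 8 of 521 (1.54%), and oligodendrocyte-like cells 0 of 78, which allows a share of up to 3.85%, and 2 of 163 (1.23%). The few Hes1 UMIs of neuron-like cells, at median depths of 1762 and 1565.5 UMIs against 1136 and 1303 in oligodendrocyte-like cells, gave a share whose interval overlapped that of oligodendrocyte-like cells in both libraries. Whether these UMIs are background was not tested, because free RNA was not measured. Their ratio between genotypes is therefore not read as a difference in expression in neurons.

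Between the genotypes Hes1 went both ways by class. In the mixed tanycyte-astrocyte cluster it had 94 UMIs in Irx3/5dHet and 897 UMIs in WT, a log2 ratio of -1.37 (-1.69 to -1.06). In ependymal-like cells it had 33 and 182 UMIs, a log2 ratio of -1.32 (-1.90 to -0.77), and in fibroblast-like cells 225 and 450 UMIs, a ratio of -0.52 (-0.76 to -0.29). In tanycyte-like cells the ratio was -0.21 (-0.45 to 0.02), and it was 0.11 (-0.28 to 0.49) in mural-like cells and -0.07 (-1.05 to 0.80) in oligodendrocyte precursor-like cells, with intervals that include no difference. Keratin epithelial-like cells, with 0.45 (0.16 to 0.73), and microglia or macrophage-like cells, with 1.05 (0.32 to 1.79), were higher in Irx3/5dHet. Of the classes in this comparison, all but the mixed cluster and the fibroblast-like cells had fewer than 100 cells in the Irx3/5dHet library.

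The make-up of the mixed cluster differed between the libraries. Its summed astrocyte markers were 6723 CPM in Irx3/5dHet (10 of 11 markers with a UMI) and 4724 CPM in WT (11 of 11), its ependymal markers 2564 and 1706 CPM (10 of 10 in both), and its fibroblast markers 933 and 438 CPM (8 and 9 of 11). Its tanycyte markers were 2999 CPM in Irx3/5dHet (12 of 13) and 3057 CPM in WT (13 of 13). When each library was clustered alone, the cluster led by Crym was astrocyte-like in Irx3/5dHet (130 cells) and tanycyte-like in WT (277 cells). The part of this difference in the Hes1 ratio of the cluster was not tested.

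**Figure D2:**
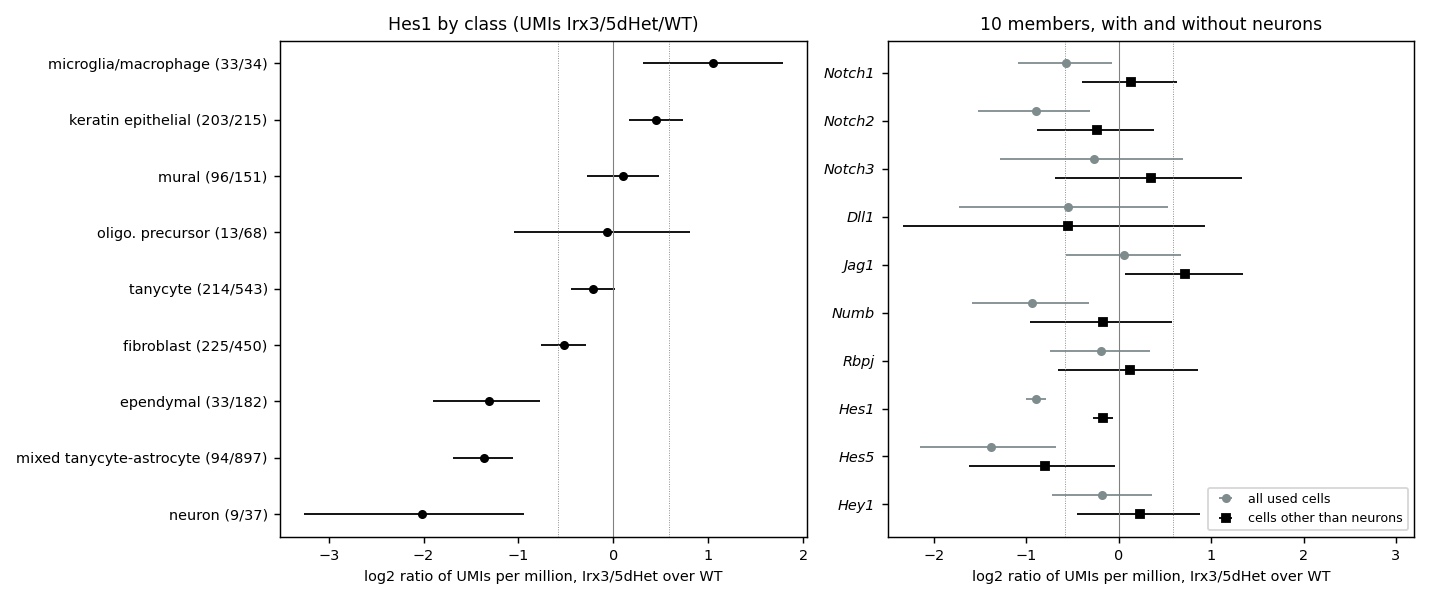
Log2 ratio of CPM in Irx3/5dHet over WT with exact 95% counting intervals, for Hes1 in the 9 described classes with at least 20 UMIs (left, UMI counts of Irx3/5dHet and then WT in brackets) and for the 10 genes over all used cells and over cells other than neurons (right). Dotted lines mark 1.5-fold. Hes1 ranges from -2.02 in neuron-like cells to 1.05 in microglia or macrophage-like cells. Neuron-like cells were a larger share of the Irx3/5dHet library, which enters the ratios over all used cells on the right.

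Finer clusters within the ventricular cells separated Hes1 further. A clustering of all cells at resolution 2 gave 3 tanycyte-like clusters and 1 astrocyte-like cluster, whose cells are not exactly those of the tanycyte-like and mixed clusters above. The one with most cells, led by Pdzph1, Crym and Rax, held 76 Irx3/5dHet and 134 WT cells, with Hes1 at 421 CPM (284 to 601) in Irx3/5dHet and 1035 CPM (884 to 1203) in WT, a log2 ratio of -1.30 (-1.91 to -0.73). A cluster rich in immediate early genes, the genes such as Fos and Egr1 that cells switch on within minutes of stimulation or of tissue dissociation, held 24 Irx3/5dHet and 128 WT cells. There Hes1 had 1693 CPM in Irx3/5dHet and 3139 CPM in WT, a ratio of -0.89 (-1.35 to -0.46). The third, led by Scn7a like the tanycyte-like cluster above, had 2341 and 2778 CPM and a ratio of -0.25 (-0.48 to -0.02). The fourth, astrocyte-like and of 14 Irx3/5dHet and 20 WT cells, had 647 and 862 CPM, from 6 and 18 UMIs. Hes1 was thus lower in Irx3/5dHet in all 4, with intervals that leave out no difference in 3 of them.

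Immediate early genes also differed between the libraries. The summed level of 12 of them (Fos, Fosb, Jun, Junb, Egr1, Atf3, Ier2, Nr4a1, Btg2, Zfp36, Dusp1 and Cyr61, chosen after their values were seen) was 7457 CPM in Irx3/5dHet and 15239 CPM in WT cells of the mixed cluster. It was 6206 and 9906 CPM in ependymal-like cells, 7914 and 9213 CPM in fibroblast-like cells, 6619 and 4210 CPM in microglia or macrophage-like cells, and 14196 and 10661 CPM in keratin epithelial-like cells. In 9 of the 11 classes Hes1 and the early genes differed between the libraries in the same direction. The exceptions were tanycyte-like cells, with 18880 CPM of early genes in Irx3/5dHet and 14278 CPM in WT, and oligodendrocyte precursor-like cells, with 2453 and 1211 CPM. In 3 of the 9 (mural-like, oligodendrocyte-like and pars tuberalis-like) the interval of the Hes1 ratio includes no difference. The Hes1 UMIs of neuron-like cells, another of the 9, may be background, which was not tested. How often other genes go the same way as the early genes was not computed, so the count of 9 has no share of all genes beside it. In the largest of the finer clusters, with a Hes1 ratio of -1.30, the early genes were at 2442 CPM in Irx3/5dHet and 3024 CPM in WT. They were at 21419 and 25090 CPM in the cluster rich in them (Hes1 ratio -0.89). The Scn7a-led cluster had 18772 and 14591 CPM (Hes1 ratio -0.25), and the astrocyte-like one 4963 and 4738 CPM (Hes1 ratio -0.41, -2.03 to 0.98). The part of the early genes in the Hes1 difference was not tested.

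**Figure D3:**
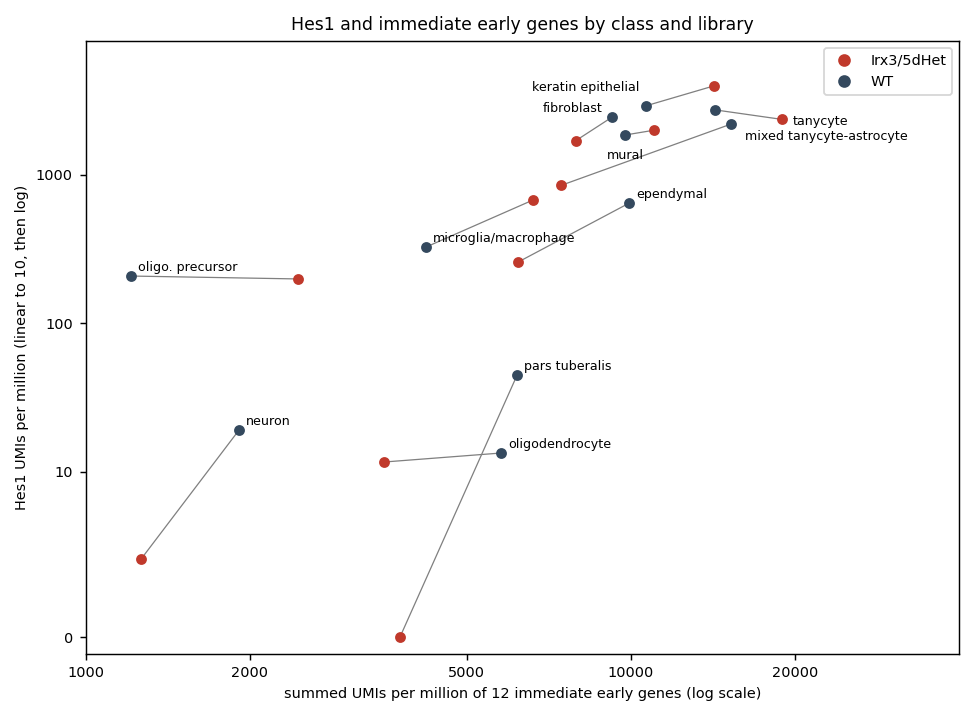
Hes1 level (vertical axis, CPM, linear up to 10 and logarithmic above) against the summed level of 12 immediate early genes (horizontal axis, CPM, logarithmic) in 11 classes; lines join the Irx3/5dHet and WT points of a class. In 9 classes the line slopes upward, and in tanycyte-like and oligodendrocyte precursor-like cells it slopes downward.

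Hes5, the Hes gene that depends most directly on Notch in neural progenitors, was highest in oligodendrocyte precursor-like cells among the described classes in both libraries. No Hes5 UMI was counted in tanycyte-like cells, but the mixed cluster held a few. The Hes5 promoter window is shown because it holds the letters that Rbpj is known to bind. The gene lies on chromosome 4 at 154960923 to 154962371 of mm10, on the plus strand, and the 250 bases before its start (chr4:154960673-154960922, GRCm38.p6, plus strand, from RefSeq) read, 5′ to 3′, with each match to the motif TGGGAA or its reverse complement in capitals:
Hes5: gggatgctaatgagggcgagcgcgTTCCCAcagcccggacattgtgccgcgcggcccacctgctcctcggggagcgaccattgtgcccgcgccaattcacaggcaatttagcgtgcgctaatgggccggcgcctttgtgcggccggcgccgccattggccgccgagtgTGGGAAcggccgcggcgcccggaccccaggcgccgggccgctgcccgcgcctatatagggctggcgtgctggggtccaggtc
The matches begin 226 and 82 bases before the start, the first on the minus strand and the second on the plus strand. Of 32851 RefSeq windows of the same length, 7094 (21.6%) hold the motif on either strand. Of the 8 of the 10 genes with a window, only Hes5 and Rbpj itself had a match. Hes1 and Hey1 had no window, so their promoters were not examined. A match describes these letters only.

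Oligodendrocyte precursor-like cells held 8 of the 21 Irx3/5dHet Hes5 UMIs and 62 of the 82 WT UMIs, at 123 CPM (52.9 to 242) and 190 CPM (146 to 244). Within that class the UMIs lay in the cluster led by Pdgfra, Olig1 and Olig2, with 152 CPM (65.7 to 299.7) in Irx3/5dHet and 239 CPM (182 to 309) in WT. The cluster led by Gpr17, Bcas1 and Enpp6, genes of cells committed to becoming oligodendrocytes, held 0 Irx3/5dHet UMIs in 14 cells and 3 WT UMIs in 30 cells, at 37.7 CPM (7.77 to 110) in WT. In the WT library, where depth allows the comparison, Hes5 was therefore lower in the Gpr17-led cluster than in the Pdgfra-led one beyond counting error, and Hes1 was also lower there, at 75.4 CPM against 251 CPM. The few cycling-like cells held 3 Irx3/5dHet and 5 WT Hes5 UMIs. The mixed tanycyte-astrocyte cluster held 2 and 4, at 18.1 CPM in Irx3/5dHet and 9.79 CPM in WT. Mural-like cells held 3 Irx3/5dHet UMIs (62.4 CPM) and 0 WT UMIs. Tanycyte-like cells held no Hes5 UMI in either library, where 3 UMIs would be 33.2 CPM in Irx3/5dHet and 15.1 CPM in WT, in the same cells in which Hes1 had 2366 and 2738 CPM.

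The Hes5 ratio between genotypes depended on which cells were counted. Over all used cells it was -1.39 (-2.15 to -0.68), over cells other than neurons -0.80 (-1.63 to -0.04), and within oligodendrocyte precursor-like cells -0.63 (-1.91 to 0.44). These cells were 4.86% of the used cells of the Irx3/5dHet library and 10.03% of those of the WT library, and had median depths of 708.5 and 1126.5 UMIs. After thinning to 1000 UMIs, 1 of 20 Irx3/5dHet cells of the class (5.00%, 0.13% to 24.9%) and 18 of 141 WT cells (12.8%, 7.74% to 19.4%) held a Hes5 UMI, beside 0 of 475 and 1 of 521 neuron-like cells. A lower level was thus not detectable within the class, and fewer such cells and less Hes5 RNA in each cannot be told apart in the total over all cells.

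Hey1, a repressor related to the Hes proteins, had 48 Irx3/5dHet and 81 WT UMIs. Keratin epithelial-like cells were highest, with 196 CPM (93.9 to 360) in Irx3/5dHet and 245 CPM (145 to 386) in WT. Oligodendrocyte precursor-like cells had 46.0 and 39.9 CPM, and neuron-like cells 9.44 CPM (5.60 to 14.9) and 9.31 CPM (5.52 to 14.7), from 18 UMIs in each library. Mural-like cells and microglia or macrophage-like cells held no Hey1 UMI in either library. The ratio of Hey1 between genotypes in neuron-like cells was 0.02 (-1.01 to 1.05). Hes1 had 4.72 CPM in Irx3/5dHet (9 UMIs) and 19.1 CPM in WT (37 UMIs) in the same cells. Hey1 was thus above Hes1 there in Irx3/5dHet and below it in WT, from few UMIs. Whether the Hey1 or the Hes1 UMIs of neuron-like cells are background was not tested.

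Over all used cells 0 of the 10 genes were at least 1.5-fold higher in Irx3/5dHet and 4 were at least 1.5-fold lower (Hes1, Hes5, Notch2 and Numb), where of 16549 genes with at least 20 UMIs 7.9% were that much higher and 21.0% that much lower. Their log2 ratios were -0.89 (-1.002 to -0.79) for Hes1, -0.90 (-1.52 to -0.31) for Notch2 and -0.94 (-1.59 to -0.33) for Numb, beside the value of Hes5 above. All 4 were lower in neuron-like cells than in the other cells of the same library, and neuron-like cells were a larger share of the Irx3/5dHet library. Over cells other than neurons, 1 of the 10 genes was 1.5-fold higher (Jag1, 0.71, 0.06 to 1.35) and 1 was lower (Hes5), where 10.7% and 19.0% of 13913 genes were. There Hes1 had 949 UMIs in Irx3/5dHet and 2620 in WT, a ratio of -0.17 (-0.28 to -0.06), and Notch1 was at 0.13 (-0.39 to 0.63), against -0.58 (-1.09 to -0.08) over all cells. The make-up of the cells other than neurons also differed between the libraries. Fibroblast-like cells were 8.31% of all used cells in Irx3/5dHet and 6.48% in WT. Oligodendrocyte precursor-like cells were 4.86% and 10.03%, and the mixed cluster 7.91% and 12.12%. The part of these shares in the ratios without neurons was not tested.

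Within single classes few of the genes had the 20 UMIs needed. In the tanycyte-like and mixed clusters together 4 had them, of which 1 was 1.5-fold higher (Notch1) and 1 was lower (Hes1), where 15% and 20.1% of 7074 genes were. Notch1 had 21 UMIs in Irx3/5dHet and 31 in WT there, a ratio of 1.03 (0.16 to 1.88), the opposite direction to Hes1 at -0.63 (-0.81 to -0.45). Notch2 in the same cells had 14 and 49 UMIs, a ratio of -0.21 (-1.18 to 0.67). In the mixed cluster alone 3 were measured, with Notch1 past 1.5-fold higher (12 and 23 UMIs, 0.95) but with an interval that includes no difference (-0.19 to 2.02), and Hes1 lower, where 16.7% and 24.1% of genes were. In neuron-like cells 0 of 4 were higher and 2 were lower (Numb, and Hes1 from UMIs that may be background), where 7.94% and 18.2% of 13041 genes were. In fibroblast-like cells neither of the 2 measured genes passed 1.5-fold, where 17.3% and 20.5% of genes did, with Jag1 at -0.36 (-1.42 to 0.64). Oligodendrocyte-like cells had none of the 10 genes with 20 UMIs. With so few of the 10 genes measured, these counts do not set them apart from all genes.

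The wider pathway list of 79 genes had 75 in the tables and 71 with at least 20 UMIs over all used cells. At 1.5-fold, 2 of these were higher in Irx3/5dHet and 15 were lower, where 7.9% and 21.0% of all genes were, so the list did not stand apart in its count of lower genes. Their median log2 ratio was -0.14, beside -0.08 for all genes measured. Over cells other than neurons 11 of 67 were higher and 6 lower, where 10.7% and 19.0% of all genes were, and the median was 0.04, beside -0.04 for all genes. By role over all used cells, 5 of 8 measured targets were lower (Bhlhe40, Hes1, Hes5, Hey2 and Nrarp) and none higher, where 21.0% of all genes were lower. Over cells other than neurons, Bhlhe40 (-0.19), Hes1 (-0.17) and Nrarp (-0.05) were no longer past 1.5-fold. Of 10 genes of receptor cleavage 1 was lower (Aph1a), and of 13 genes of the repressor complex 2 were higher (Ctbp1 and Ctbp2) and 2 lower (Hdac1 and Tle2).

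Hey2, a repressor of vessels and ventricular cells, had 14 Irx3/5dHet and 83 WT UMIs over all cells, a ratio of -1.99 (-2.92 to -1.16), and -1.20 (-2.13 to -0.37) over cells other than neurons. The mixed cluster held 4 of these Irx3/5dHet UMIs and 36 of the WT UMIs. Nrarp, a feedback inhibitor of Notch, had 22 and 60 UMIs, a ratio of -0.87 (-1.65 to -0.14) over all cells but -0.05 (-0.83 to 0.69) without neurons. Bhlhe40, a stress-responsive repressor, had 96 and 226 UMIs, a ratio of -0.66 (-1.02 to -0.31) over all cells but -0.19 (-0.66 to 0.27) without neurons. In the mixed cluster it had 5 and 56 UMIs, a ratio of -1.60 (-3.27 to -0.29).

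In the classes that had 100 or more cells in both libraries, up to 5 other genes of the list per class are named here. They were past 1.5-fold with an interval that leaves out no difference. At 1.5-fold alone, 4 of 51 list genes were higher and 9 lower in neuron-like cells, where 7.94% and 18.2% of all genes were. In fibroblast-like cells 4 of 18 were higher and 3 lower (17.3% and 20.5% of all genes). In oligodendrocyte-like cells 4 of 23 were higher and 5 lower (11.8% and 22.4%). In the tanycyte-like and mixed clusters together 8 of 37 were higher and 8 lower (15% and 20.1%). In neuron-like cells the corepressors Ctbp1 (263 Irx3/5dHet and 158 WT UMIs, 0.75, 0.46 to 1.05) and Ctbp2 (123 and 83 UMIs, 0.59, 0.17 to 1.01) were higher. The histone deacetylase gene Hdac1 (98 and 203 UMIs, -1.03, -1.39 to -0.68), the acetyltransferase gene Ep300 (52 and 82 UMIs, -0.64, -1.17 to -0.12) and Bhlhe40 (42 and 75 UMIs, -0.82, -1.40 to -0.25) were lower. Hdac1 was also lower in fibroblast-like cells (14 and 46 UMIs, -1.24, -2.22 to -0.35), where Mfap2, a microfibril gene whose product can act on Notch, was higher (51 and 44 UMIs, 0.69, 0.08 to 1.31). Ctbp1 (31 and 39 UMIs, 1.05, 0.32 to 1.77) and Tle1 (13 and 13 UMIs, 1.38, 0.16 to 2.61) were higher in oligodendrocyte-like cells. In the tanycyte-like and mixed clusters together, Psen2, a subunit of the protease that frees the intracellular part of Notch, was higher (15 and 18 UMIs, 1.33, 0.24 to 2.40) and the ubiquitin ligase Mib2 was lower (1 and 20 UMIs, -2.73, -8.10 to -0.08).

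Dlk1, a ligand-like protein that lacks the Delta domain for activating Notch, went opposite ways in the ventricular clusters. In the mixed cluster it had 2 UMIs in Irx3/5dHet and 95 in WT, a ratio of -3.68 (-6.75 to -1.79), beside the higher astrocyte and ependymal markers of the Irx3/5dHet cells of that cluster, whose part was not tested. In tanycyte-like cells it had 121 UMIs in each library, or 1338 CPM in Irx3/5dHet and 610 CPM in WT, a ratio of 1.13 (0.76 to 1.51). Keratin epithelial-like cells held 62 and 1 UMIs. The Dlk1 total over all cells was 1656 Irx3/5dHet and 1797 WT UMIs, a ratio of 0.46 (0.36 to 0.56). Neuron-like cells, a larger share of the Irx3/5dHet library, held 1449 and 1523 of these UMIs, a ratio of -0.05 (-0.16 to 0.05). Over cells other than neurons the ratio was 0.89 (0.63 to 1.16).

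Most other genes of the list with most UMIs in their roles were within 1.5-fold over all used cells, Dll3 being the exception among those that follow. Adam10 and Psenen, which take part in receptor cleavage, had log2 ratios of 0.06 (-0.18 to 0.30) and -0.08 (-0.30 to 0.13). Nedd4 and Dtx3, ubiquitin ligases, had 0.16 (0.05 to 0.28) and 0.15 (-0.06 to 0.36), and the coactivators Snw1 and Crebbp had -0.18 (-0.32 to -0.04) and 0.00 (-0.25 to 0.24). The corepressors Ncor1 and Hdac2 had -0.13 (-0.28 to 0.02) and 0.55 (0.36 to 0.74), and the glycosyltransferases Poglut1, Rfng and Lfng had 0.53 (0.21 to 0.84), 0.12 (-0.33 to 0.56) and -0.33 (-1.09 to 0.40). The ligands Jag2 and Dll3 had 0.43 (-0.24 to 1.10) and -0.88 (-1.81 to -0.03). Dner, a neuronal Notch-binding protein, had 0.26 (0.12 to 0.40). It had -0.06 (-0.22 to 0.09) within neuron-like cells and -0.16 (-0.54 to 0.21) over cells other than neurons. Psen2, Fbxw7 and Hes6 had 0.35 (-0.06 to 0.75), 0.54 (0.30 to 0.78) and -0.04 (-0.43 to 0.34), and Atoh1 had 1 UMI in all.

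Set against all other used cells, the pathway genes that were higher in both libraries overlapped between classes. Notch1, Notch2 and Hes1 were each among them in several classes. Oligodendrocyte precursor-like cells were at least 2-fold higher in both libraries for 4 of the 10 genes (Notch1, Dll1, Hes5 and Hey1), where 7.52% of 16549 genes were. Hes5 was 26.3-fold higher there in Irx3/5dHet and 37.3-fold higher in WT. Of the measured genes of the wider list, 12 of 71 were past 2-fold there, Dll3 and Nrarp among them. In Irx3/5dHet, Dll1 rests there on 1 UMI, Hey1 on 3 and Notch1 on 5. Mural-like cells were higher for 4 (Notch1, Notch3, Jag1 and Hes1), where 6.51% of genes were. Of the wider list 7 of 71 were, Hey2 and Nrarp among them. Keratin epithelial-like cells were higher for 6 (Notch1, Notch2, Dll1, Jag1, Hes1 and Hey1), where 7.34% of genes were. Of these 6, Notch1, Notch2, Dll1 and Jag1 rest on at most 8 UMIs in each library. The wider list had 13 of 71 past 2-fold in these cells, Jag2, Hey2 and Nrarp among them. Since clusters share the genes they were built on, these values describe the clusters and are no test.

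The remaining classes had smaller sets of the 10 genes. Fibroblast-like cells were higher for 3 of the 10 genes (Notch1, Jag1 and Hes1, with 7.41% of all genes), tanycyte-like cells for 3 (Notch2, Numb and Hes1, with 6.22%), and the mixed cluster for 3 (Notch1, Notch2 and Hes1, with 5.93%). Microglia or macrophage-like cells were higher for 2 (Notch1 and Numb, with 7.81%) and ependymal-like cells for 1 (Notch2, with 9.85%). Lfng, which modifies the receptor's sugars, was 16.8-fold higher in ependymal-like cells of Irx3/5dHet and 9.53-fold higher in those of WT. Neuron-like, oligodendrocyte-like and pars tuberalis-like cells were higher for 0 of the 10 genes, where 12.1%, 5.98% and 5.32% of all genes were. In neuron-like cells 5 of 71 list genes were past 2-fold, Dlk1, Dner and Fbxw7 among them, beside the 12.1% of all genes.

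**Figure D4:**
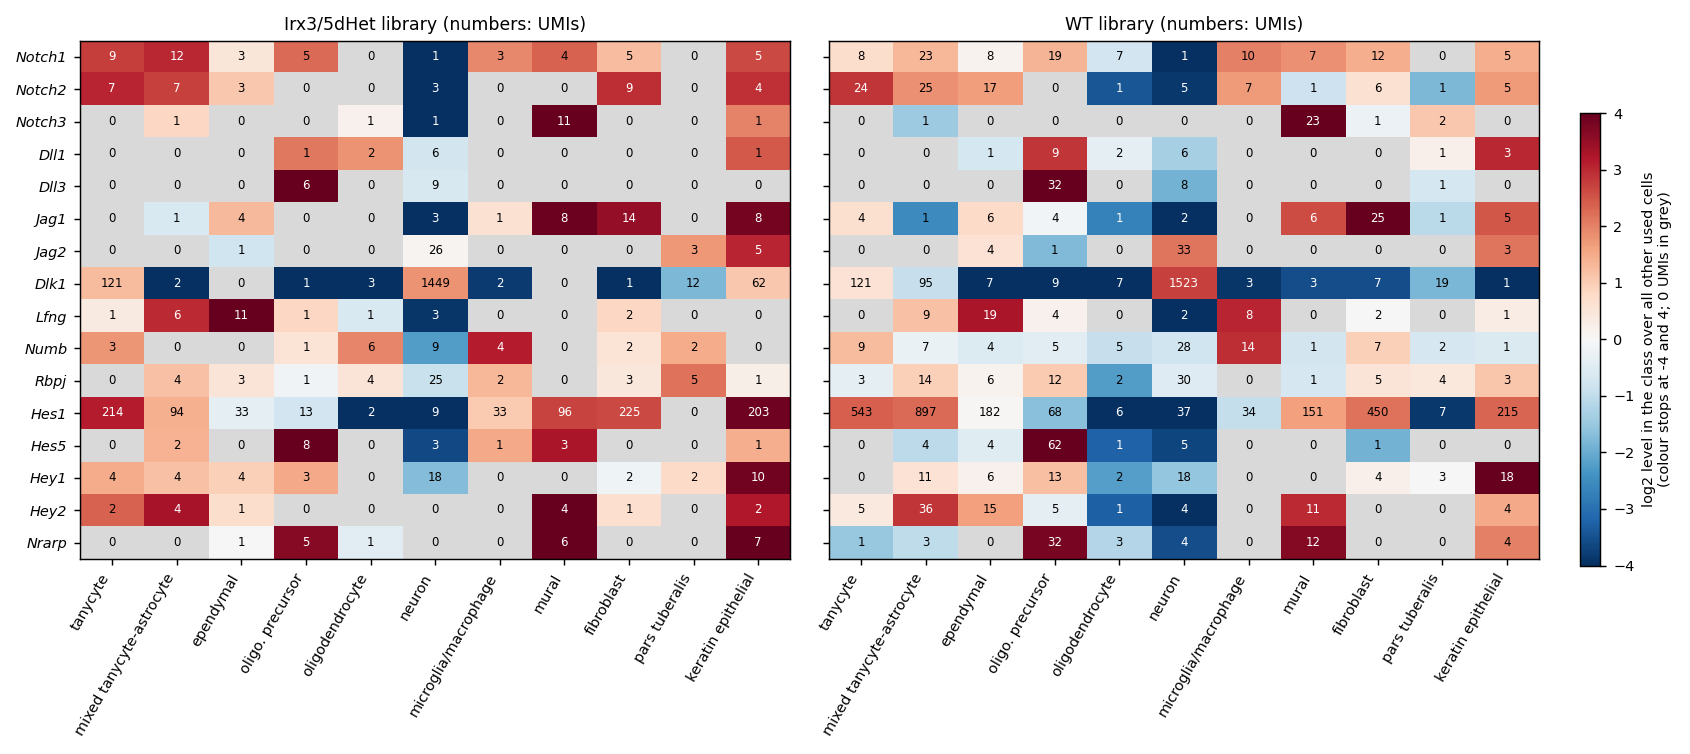
Log2 level of 16 pathway genes in each of 11 classes over all other used cells, for the Irx3/5dHet library (left) and the WT library (right), with the UMIs of the class printed in each box, and 0 UMIs in grey. Notch3 in mural-like cells and Hes5 in oligodendrocyte precursor-like cells are high in both panels, with 11 and 23 UMIs of Notch3 and 8 and 62 UMIs of Hes5 in Irx3/5dHet and WT.

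The genes most like each of the 10 over 22 class and library points were found by Pearson's correlation of log2(CPM + 10) among 10169 genes with at least 100 UMIs. The points share libraries, and the correlations are descriptions without a test. Hes1 was most like Zfp36l1 (0.92), Gm26669 (0.88), Pkn2 (0.88), Ifitm3 (0.87) and Gpc6 (0.87). Notch1 was most like Zfp36l1 (0.88) and Hes1 (0.85), followed by Rps27l, Crot and Gm19774 (0.82 to 0.79). Notch2 was most like Sox9 (0.88), Bdh2, Mgst1, Socs3 and Slc41a1 (0.87 to 0.86). Hes5 was most like Kcnip3 (0.84), Gpr17 (0.79), Snx22, Sema3d and Traf4 (0.77 each), and Hey1 most like Med24 (0.87), Kcnk1 (0.85), Cdo1 (0.78), Fmo2 and Klf5 (0.77 each). Numb was most like Unc93b1 (0.80), Mcl1, Ube2f, Tpst2 and Sgpl1 (0.79 to 0.76), and Rbpj most like 1300002E11Rik (0.72), Firre, Lrrcc1, Ctnnb1 and Gm9083 (0.70 to 0.68). With Spearman's correlation none of the 5 genes named for Hes5 stayed, 3 of 5 stayed for Notch2, and 2 of 5 for each of the others, so these partners depend on the measure. Notch3, Dll1 and Jag1 had fewer than 100 UMIs and were not compared.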

How the data were processed

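The authors' deposited tables hold whole-number counts of UMIs per gene and barcode, 1 table per library. Per the submitters' processing notes, STAR 2.6.0b, Picard, bcl2fastq and Seurat 3 were used with mm10; no gene annotation is named there. The authors' deposited merged table holds natural log values, scaled per cell, and gave only a list of barcodes for one alternative. Barcodes with fewer than 300 genes or over 20% mitochondrial UMIs were left out (316 of 1800 in Irx3/5dHet and 395 of 2800 in WT). Scrublet (scanpy 1.11.5) called 17 of 3889 cells doublets (0.437%) and these were removed, so doublets may remain. The libraries were clustered together (2000 variable genes, 30 components, Leiden resolution 1), without the Notch list, Irx3, Irx5, mitochondrial, ribosomal, haemoglobin and sex-linked genes among the variable genes. Counts were summed per class and library. Intervals at 95% are exact Poisson (CPM), exact conditional binomial (ratios) and Clopper-Pearson (shares), and the code was tested on simulated data; a floor is 3 UMIs. UMIs limit the precision, and mouse-to-mouse spread cannot be seen. The 10 genes are all named. Of the wider list, the 3 with most UMIs per role, and up to 5 per class of at least 100 cells past 1.5-fold with an interval clear of no difference, are named; others, such as Hey2 and Nrarp, were named after their values were seen, and some that the rule names are not reported here. The 5 most alike genes are named per gene with at least 100 UMIs. The genes and lists were chosen with earlier results of these data known. Alternatives covered the cell filters, doublets, clustering, class assignment, UMI minimum, fold, pseudocount and thinning; 4 were added after seeing the data.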

Additional observations from a re-analysis of the deposited data

Results flagged for a closer look

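Hes1 differed between Irx3/5dHet and WT in opposite directions in different classes, with counting intervals that leave out no difference on both sides. Its log2 ratio was -1.32 in ependymal-like cells, -0.52 in fibroblast-like cells and -1.37 in the mixed tanycyte-astrocyte cluster, against 0.45 in keratin epithelial-like cells and 1.05 in microglia or macrophage-like cells. With 1 library per genotype the difference between classes was not tested. The value of neuron-like cells was -2.02, from 9 UMIs in Irx3/5dHet and 37 in WT. Whether these UMIs are background was not tested, and the value is not read as a difference in expression in neurons. The mixed cluster also had a higher summed level of astrocyte markers in Irx3/5dHet than in WT (6723 and 4724 CPM). The microglia or macrophage-like value rests on 33 and 34 UMIs, of which 8 and 10 came from 1 cell in each library.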

How the results depend on the processing

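No paired analysis was possible because each genotype has 1 library without replicate numbers, and leaving out a replicate was not possible for the same reason. Under the alternatives, 199 ratios of the 10 genes stayed within the counting interval of the reported value, 9 left it and 1 turned its direction. The one that turned was Notch1 over all used cells, at -0.58 but 0.13 without neurons (an alternative chosen after seeing the data). Hes1 over all used cells was -0.17 without neurons and -0.45 as a mean over cells, and in the tanycyte-like and mixed clusters it lay between -0.83 and -0.36, the value nearest 0 being that without the cluster richest in early genes (also chosen after seeing the data). Counts past the fold moved more. In the tanycyte-like and mixed clusters, where 1 of the 10 genes was higher and 1 lower, cells with at least 500 genes gave 0 lower, keeping called doublets gave 2 higher and 2 lower, an own marker score per cell gave 2 lower, clustering each library alone gave 3 lower, a minimum of 10 UMIs gave 2 higher and 2 lower, and a fold of 2 gave 0 lower. For the pathway list there (8 higher and 8 lower), at least 500 genes gave 5 lower, 10 UMIs gave 17 higher, 50 UMIs gave 2 higher and 2 lower, and a fold of 2 gave 4 higher and 2 lower. Over all used cells, where 2 of the list were higher, 15 of it lower and 4 of the 10 genes lower, a mean over cells gave 7 of the list higher, and a fold of 2 gave 0 of the list higher, 4 of it lower and 1 of the 10 genes lower. In neuron-like cells (list 4 higher and 9 lower, 2 of the 10 genes lower), at least 500 genes gave 2 of the list higher, a mean over cells 7 higher, an own marker score 5 lower, 50 UMIs 5 of the list and 0 of the 10 genes lower, and a fold of 2 gave 0 of the list higher and 3 lower. The causes were not tested. With 1 library per genotype, each of the 10 genes but Hes1 had at most 62 UMIs in any class and library.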
